A study of Mus musculus with 6 samples.

Results

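Molecular chaperones bind newly made or damaged proteins and help them fold, assemble or be degraded. The transcripts described here were the heat shock (Hspa, Hsp90, Hspb, Hspd1, Hspe1, Hsph1), CCT (Cct and Tcp1), DnaJ (Dnaja, Dnajb, Dnajc) and prefoldin (Pfdn) genes. They were chosen by symbol alone, which gave 81 of the 18312 genes in the analysed table. By family they were 10 CCT genes, 4 prefoldin genes, Hspd1 and Hspe1, 9 genes of the Hsp70 family, 3 of the Hsp110 family, 2 of the Hsp90 family, 8 small heat shock genes and 43 J proteins. Classes were set from textbook knowledge, with earlier results of these data known. Of the genes, 6 are classed here as heat-inducible, 6 as induced by endoplasmic reticulum (ER) stress and 15 as tissue-restricted. Another 33 are classed as constitutive, which leaves 21 unclassified.

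The series set out to find mRNA targets of Brf1 (Zfp36l1) and Brf2 (Zfp36l2), a pair of AU-rich element binding proteins, in mouse embryonic stem cells. The labels describe 6 libraries in 3 groups of 2. These are RNA precipitated with an anti-Brf1/2 antibody, RNA precipitated with rabbit IgG as the control, and total RNA. All come from wild-type E14 cells of 129/Ola background, a single established line, grown in DMEM with 15% FBS and 1000 U/ml LIF, and the RNA was taken from a hypotonic cytoplasmic extract. No heat shock or other stress is described in the labels. The table holds 1 profile of 22625281 counts, and no column of it names a library, so the profile was put in no group. No fold change between groups and no test was therefore possible, there are no replicates, and a level here may be that of total or of precipitated RNA. Levels are the authors' FPKM, the count divided by the total count and by the effective length of the transcript model. The bounds deposited beside them lie 2 Poisson standard deviations from the value and cover counting error only. All 6 embryonic stem cell markers looked up had at least 40.6 FPKM, with Pou5f1 at 605.

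Chaperones work in linked systems. Prefoldin and the J proteins hand clients to CCT and to Hsp70, which are driven by ATP, and Hsp90 takes over partly folded clients such as kinases and steroid receptors. In stressed cells, heat shock factors bind alternating repeats of GAA and TTC, called heat shock elements, in the promoters of the inducible genes. Stress in the ER acts on its own chaperone genes through another promoter sequence, the ER stress element.

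Promoter windows from 250 bases before to 50 bases after the annotated start, from RefSeq on GRCm38.p6, were found for 68 of the 81 genes. Hspa8 and Hsp90aa1 are among those without one. The reference is C57BL/6J, not the 129/Ola background of the cells. A heat shock element of 3 units, searched on both strands as alternating GAA and TTC with 2 free bases between units, occurred in 4 of these 68 chaperone genes (5.88%), against 85 of all 13506 genes of the table with a window (0.629%). The 4 were Hspd1 and Hspe1, Hsph1 and Dnajb6. Of the classes, this was 1 of 5 heat-inducible genes and 3 of 28 constitutive genes. Hspd1 and Hspe1 share their stretch, so the 4 genes are not 4 separate promoters. The constitutive label does not say that heat leaves these genes unchanged, which was not tested. The stretches are shown because they hold every such match, with the matched letters in capitals. The Hspe1 stretch also serves Hspd1, whose windows lie on the opposite strand and overlap that of Hspe1 by up to 285 bases. Its 2 overlapping matches span 18 bases, and 71 bases separate them from the annotated start of Hspe1. The match of Hsph1, cut short here, lies just after the annotated start.
Hspe1 (chr1:55088019-55088116, plus strand): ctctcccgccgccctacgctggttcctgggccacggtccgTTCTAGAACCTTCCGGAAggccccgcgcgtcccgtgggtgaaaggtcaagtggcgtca
Dnajb6 (chr5:29735812-29735904, plus strand): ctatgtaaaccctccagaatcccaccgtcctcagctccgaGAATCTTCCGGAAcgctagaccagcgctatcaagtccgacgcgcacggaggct
Hsph1 (chr5:149636280-149636308, minus strand): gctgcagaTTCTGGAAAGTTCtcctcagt

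The best known heat-inducible genes, Hspa1a and Hspa1b, had no perfect match of 3 units in this window. A match of 2 units (either order, contained in the longer pattern) occurred in both, 96 bases before the start. Their windows are identical at 296 of 300 positions, and the stretch printed here is the same in both genes. Matches of 2 units are common, with 4 of 5 heat-inducible genes and 20 of all 68 chaperone genes (29.4%), against 2119 of 13506 genes (15.7%).
Hspa1a (chr17:34972213-34972300, minus strand): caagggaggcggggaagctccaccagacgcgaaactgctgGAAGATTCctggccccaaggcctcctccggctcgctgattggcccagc

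The ER stress element, searched on both strands as CCAAT and CCACG with 9 free bases between them, occurred in 3 of the 6 genes classed as induced by ER stress and in no other chaperone gene with a window. Among all 13506 genes, 22 (0.163%) had it. The 3 were Hspa5, Hsp90b1 and Dnajc3, and Hsp90b1 had 2 matches on opposite strands. This motif was added after the levels had been seen. The class and the motif both rest on earlier knowledge of ER stress genes. The match is therefore no independent support for the class. A match describes letters in a window and shows no binding, and the absence of one says nothing of the factor.
Hspa5 (chr2:34771985-34772083, plus strand): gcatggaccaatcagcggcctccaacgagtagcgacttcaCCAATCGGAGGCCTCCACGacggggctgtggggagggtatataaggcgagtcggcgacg
Hsp90b1 (chr10:86705493-86705694, minus strand): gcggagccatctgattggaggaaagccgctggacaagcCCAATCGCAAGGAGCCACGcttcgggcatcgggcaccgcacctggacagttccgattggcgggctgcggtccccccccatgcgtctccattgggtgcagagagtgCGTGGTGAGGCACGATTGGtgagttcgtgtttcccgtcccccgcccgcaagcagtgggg
Dnajc3 (chr14:118937787-118937885, plus strand): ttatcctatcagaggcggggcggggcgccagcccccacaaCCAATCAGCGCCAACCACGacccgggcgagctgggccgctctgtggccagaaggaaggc

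**Figure D1:**
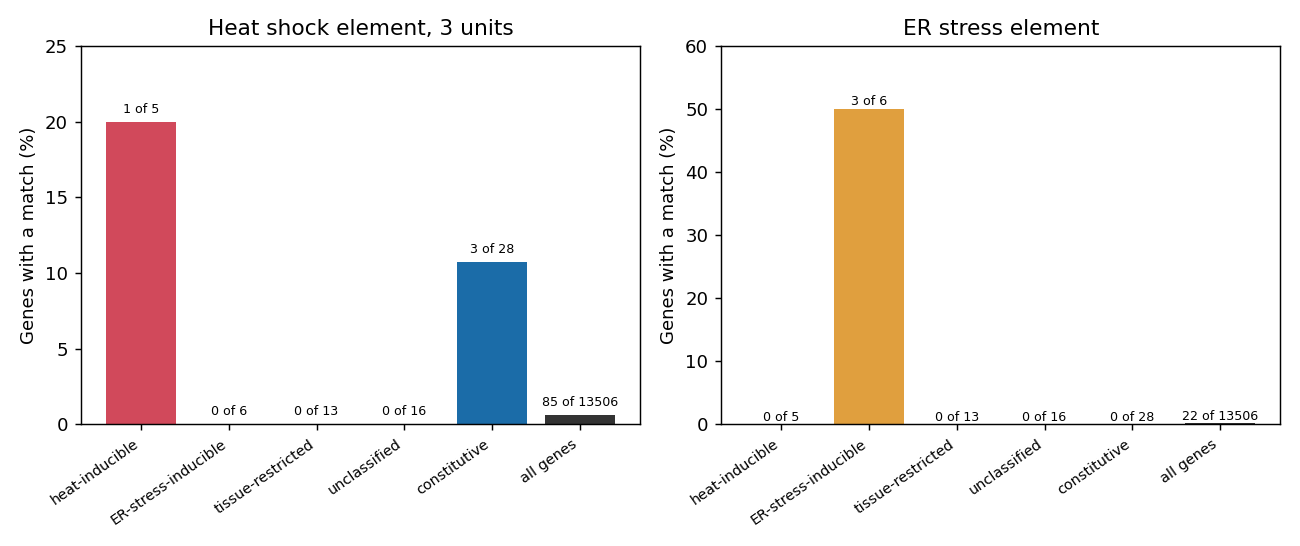
Share of genes with a match in the promoter window (vertical axis, percent) for 5 chaperone classes and for all genes of the table, with the heat shock element of 3 units at left and the ER stress element at right. Numbers over the bars are genes with a match and genes with a window. The ER stress element stood in 3 of 6 ER-stress-inducible genes and in 22 of 13506 of all genes. The class and the motif both rest on earlier knowledge of ER stress genes.

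Of the 81 chaperone genes, 64 (79.0%) had at least 1 FPKM, against 56.0% of all genes, and 18 had at least 100 FPKM, against 3.06% of all genes. The 5 without a count compare with 21.0% of all genes. The median was 12.2 FPKM for the chaperones and 1.94 FPKM for all genes. Together the chaperones held 629872 counts, 2.78% of the total, and 2.29% of the summed FPKM. Hsp90aa1 and Hspa8 alone gave 0.606% and 0.556% of all counts (Wilson 95% intervals 0.603 to 0.610 and 0.553 to 0.559).

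The classes differed in median level, and the heat-inducible class was spread widely. Because the classes were set with earlier results of these data known, their differences are no independent support for the labels. The 6 heat-inducible genes had a median of 27.0 FPKM and ran from Hspa1a at 0.986 to Hsp90aa1 at 1443. Both ends are uncertain, since 60.3% and 65.6% of the 50-base stretches of these transcripts also occur in other annotated genes. For Hspa1b and Hspb1 the shares were 62.3% and 58.9%. The 2 heat-inducible genes with little or no such sharing, Dnajb1 and Hsph1, had 12.1 and 41.9 FPKM. The 6 ER-stress-inducible genes had a median of 21.6 FPKM and ran from Dnajc3 at 9.35 to Hsp90b1 at 238. Tissue-restricted genes were low. Of the 15, 3 (20%) had at least 1 FPKM, against 56.0% of all genes. None had 5 FPKM (against 38.3% of all genes), and the median was 0.307 FPKM. In a bulk sample, a low level from few cells and one from little RNA per cell cannot be told apart. The 21 unclassified genes had a median of 3.12 FPKM, and 17 (81.0%) had at least 1 FPKM, against 56.0% of all genes. All 33 constitutive genes passed 1 FPKM. Their median was 91.9, and they ran from Dnajc1 at 2.75 to Hspa8 at 1462. The classes overlap in range, since the tissue-restricted Dnajc6, at 2.86 FPKM, stood beside Dnajc1 with overlapping bounds.

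**Figure D2:**
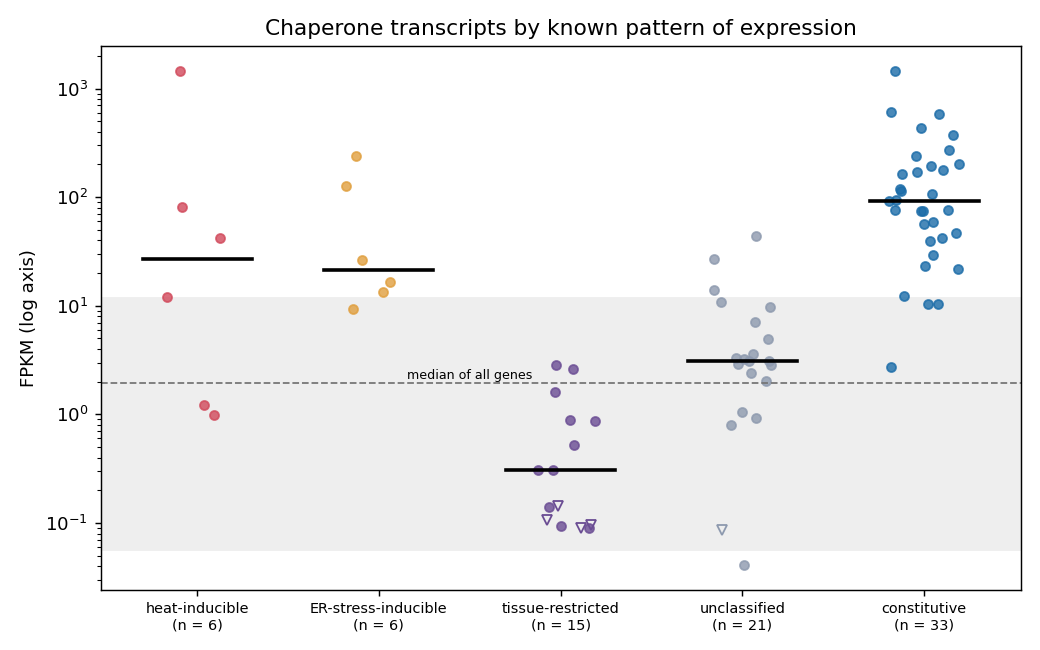
FPKM on a log axis for the 81 chaperone genes by class. Points are genes, black bars class medians, open triangles genes with 0 counts at the limit that 3 counts allow; the dashed line and grey band are the median and the middle 2 quartiles of all genes. The heat-inducible genes span 0.986 to 1443 FPKM and the tissue-restricted genes stay at or under 2.86 FPKM.

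CCT, also called TRiC, is a double ring of 8 different subunits that folds actin and tubulin among other proteins. All 8 subunits of the ubiquitous ring were among the more abundant transcripts, with a median of 221 FPKM. Cct6a was highest at 432 FPKM (bounds 426 to 438, 23883 counts). Cct8 followed at 373, Cct4 at 275, Cct3 at 240.2 and Cct7 at 202. Cct5 had 178 FPKM, Cct2 171 and Tcp1, the first subunit to be named, 162 (bounds 160 to 165). No neighbours in this order overlapped in bounds. The ring holds its subunits in equal number, and the highest level was 2.66 times the lowest (95% counting interval 2.61 to 2.72), or 2.00 times on the model length (1.96 to 2.04). That order depends on the length used. On the model length Cct5 (489 FPKM) passed Cct8 (451) and stood next to Cct6a (514), while Tcp1 (257) stayed lowest. In Cct6a, Cct8 and Tcp1, 18.4%, 8.02% and 23.3% of the exon bases overlap Psph, Usp16 and Acat3 on the opposite strand, and the table does not say whether strand was used. The remaining genes of the family were near 0. Cct6b, the testis counterpart of Cct6a, had 6 counts (0.0900 FPKM), and Cct8l1 had 2 counts.

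Prefoldin carries unfolded actin and tubulin to CCT and has 6 subunits, of which 4 are named Pfdn in the table. Pfdn4 had 93.3 FPKM, Pfdn2 91.9, Pfdn1 74.3 and Pfdn5 39.5, and the bounds of Pfdn4 and Pfdn2 overlapped. Vbp1 and H2-Ke2 are the other subunits, H2-Ke2 being a RefSeq synonym of Pfdn6. They lie outside the symbols chosen and had 190.3 and 112 FPKM. Over the 6 subunits, the highest level, that of Vbp1, was 4.81 times the lowest, that of Pfdn5 (counting interval 4.50 to 5.14). On the model length the same pair differed 2.24 times, and Pfdn2 (168 FPKM) became the highest.

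**Figure D3:**
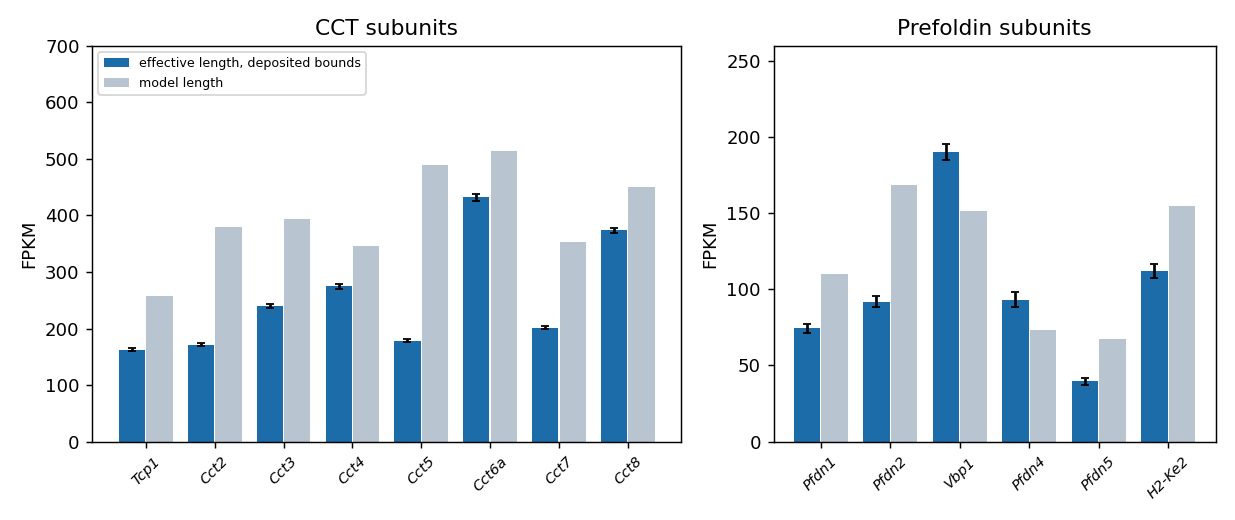
FPKM of the 8 CCT subunits and the 6 prefoldin subunits. Dark bars use the effective length, with the deposited bounds as error bars, and pale bars use the model length. Cct5 and Cct2 gain most on the model length among the CCT genes, and Vbp1 and Pfdn4 are lower on it.

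Hspd1 (Hsp60) and its lid Hspe1 (Hsp10) fold proteins inside mitochondria, and the genes lie next to each other. Hspe1 had 614 FPKM (bounds 602 to 625, 11305 counts) and Hspd1 578 (572 to 584, 36484 counts). The ratio of Hspe1 to Hspd1 was 1.06 (counting interval 1.04 to 1.08) and turned on the model length, to 0.941 (0.921 to 0.961). The pair thus stood close on either length, with an order that depends on it. Of the 50-base words of the Hspe1 and Hspd1 transcripts, 36.1% and 44.8% also occur in transcripts of other annotated genes, and 14.5% of the exon bases of Hspe1 overlap Hspd1 on the opposite strand.

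The Hsp70 family held the highest chaperone transcript and also some under 1 FPKM. Hspa1a and Hspa1b, the classic heat-inducible Hsp70 genes, had 0.986 FPKM (bounds 0.848 to 1.12, 206 counts) and 1.22 FPKM (1.06 to 1.37, 245 counts). Hspa8, the constitutive Hsc70, had 1462 FPKM from 125762 counts and was the 17th highest gene of the table. The summed level of Hspa1a and Hspa1b was 0.00151 times that of Hspa8 (counting interval 0.00137 to 0.00165), and 0.00269 times on the model length. Sequence shared between copies limits these values. Of the 50-base words of Hspa1a, 58.8% also occur in Hspa1b, and 84.4% of those of Hspa8 occur in transcripts of 11 other genes. The sources used here do not state the read length or how shared reads were placed. Unique and total counts were equal in every row, so no read is recorded as shared between genes. Whether reads that fit both Hspa1a and Hspa1b were dropped or put on a single copy cannot be told here. Their split is therefore uncertain, and so are their summed level and its ratio to Hspa8.

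The other Hsp70 genes ranged widely. Hspa5 (BiP), the main Hsp70 of the ER, had 127 FPKM, and Hspa13, an ER-associated relative, 10.8. Hspa14, which acts at the ribosome with the J protein Dnajc2, had 76.2 FPKM, and Dnajc2 59.3. Hspa1l and Hspa2, known from the testis, had 0.876 and 0.888 FPKM, and their bounds overlapped each other and that of Hspa1a. Hspa1l lies beside Hspa1a on chromosome 17 and shares 9.57% of its 50-base words with it. Hspa12b, known from endothelium, had 0.311 FPKM. Hspa9 and Hspa12a were not analysed here.

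Proteins of the Hsp110 family release ADP from Hsp70 and so reset its cycle. The heat-inducible member Hsph1 had 41.9 FPKM (bounds 40.7 to 43.0), against 195 FPKM (193 to 198) for Hspa4, which is constitutive. The level of Hsph1 was 0.214 times that of Hspa4 (counting interval 0.208 to 0.221), and 0.271 times on the model length. Hspa4l had 3.12 FPKM.

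Of the Hsp90 genes, Hsp90aa1, the cytosolic form known for its heat response, had 1443 FPKM from 137180 counts. That was the 18th highest level in the table and a count above that of Hspa8. Its upper bound of 1450.4 FPKM stayed under the lower bound of Hspa8, 1454, and on the model length the gap was wider, at 2127 against 2642 FPKM. Of its 50-base words, 65.6% occur in transcripts of other genes. Hsp90b1 (Grp94), the ER form, had 238 FPKM. Hsp90ab1, the constitutive cytosolic form, was not analysed here.

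Small heat shock proteins hold unfolded proteins without ATP, and several are known from muscle. Hspb1 (Hsp25 in the mouse), the inducible and widely expressed form, was highest at 81.7 FPKM (bounds 78.8 to 84.6). Of its 50-base words, 58.9% occur in an annotated pseudogene. Hspb8, a partner of Bag3, had 9.73 FPKM, and Hspb11, named as a heat shock gene but known as an intraflagellar transport subunit, 3.59. Of the muscle genes, Hspb2 had 2.64 FPKM from 79 counts, Hspb6 1.61 from 44 and Hspb7 0.522 from 42. The bounds of Hspb11 and Hspb2 overlapped, and their order turned on the model length (3.64 and 4.16 FPKM). Hspb3 had no counts, which allows up to 0.106 FPKM, and Hspb9, known from testis, had 6 counts. Hspb2 overlaps Cryab, another small heat shock gene, on the opposite strand over 32.6% of its exon bases.

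J proteins bind Hsp70, raise its ATPase rate and bring it clients. Of the 43, 35 (81.4%) reached 1 FPKM, against 56.0% of all genes, and the median over the 43 was 10.4. Type A members, the closest to bacterial DnaJ, included Dnaja1 at 119.9 and Dnaja2 at 108 FPKM, both cytosolic partners of Hspa8, and Dnaja3, which acts in mitochondria, at 29.6. Dnaja4 had 0.802 FPKM, and 52.6% of its exon bases overlap Wdr61 on the opposite strand.

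Among the type B genes, the heat-inducible Dnajb1 (Hsp40) had 12.1 FPKM (bounds 11.4 to 12.8), against 75.7 (73.7 to 77.6) for Dnajb6, which suppresses aggregation. The ratio of Dnajb1 to Dnajb6 was 0.160 (counting interval 0.150 to 0.170), and 0.231 on the model length. The ER forms Dnajb11 and Dnajb9 had 16.6 and 13.4 FPKM, and the ER membrane protein Dnajb12 had 10.4. Dnajb5, Dnajb2 and Dnajb4 ran from 7.10 to 2.91, and Dnajb14 had 0.935. The testis genes Dnajb3 and Dnajb13 had 7 and 5 counts. Dnajb8, also known from testis, and Dnajb7 had no counts, which allows up to 0.0963 and 0.0859 FPKM.

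Type C members share only the J domain and have varied tasks. The highest was Dnajc8, a spliceosome component, at 114 FPKM, followed by Dnajc7, which links Hsp70 and Hsp90, at 74.4. Next came Dnajc2, which works at the ribosome, at 59.3, Dnajc21, which acts in ribosome maturation, at 56.3, and Dnajc9, a histone chaperone, at 47.3. Among mitochondrial members, Dnajc11 had 43.7, Dnajc19 41.8 and Dnajc15 26.7 FPKM, which need not hold for others of that compartment. In the ER, Dnajc10, a disulphide reductase, had 26.5 FPKM, Dnajc3 9.35 and Dnajc1 2.75. Dnajc5, the cysteine string protein of synaptic vesicles, had 23.3, Dnajc13, an endosomal protein, 21.9, Dnajc14 14.1, Dnajc24, needed for diphthamide synthesis, 12.2, and Dnajc17 10.5. Neighbours in this order were often not told apart, with overlapping bounds in 14 of 25 neighbouring pairs. Dnajc6 (auxilin), known from neurons, had 2.86 FPKM from 421 counts. The unclassified genes Dnajc12, Dnajc16, Dnajc22, Dnajc25, Dnajc27, Dnajc28 and Dnajc30 lay between 1.06 and 4.92 FPKM. The testis genes Dnajc5b and Dnajc5g had no counts, with limits of 0.143 and 0.0905 FPKM.

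**Figure D4:**
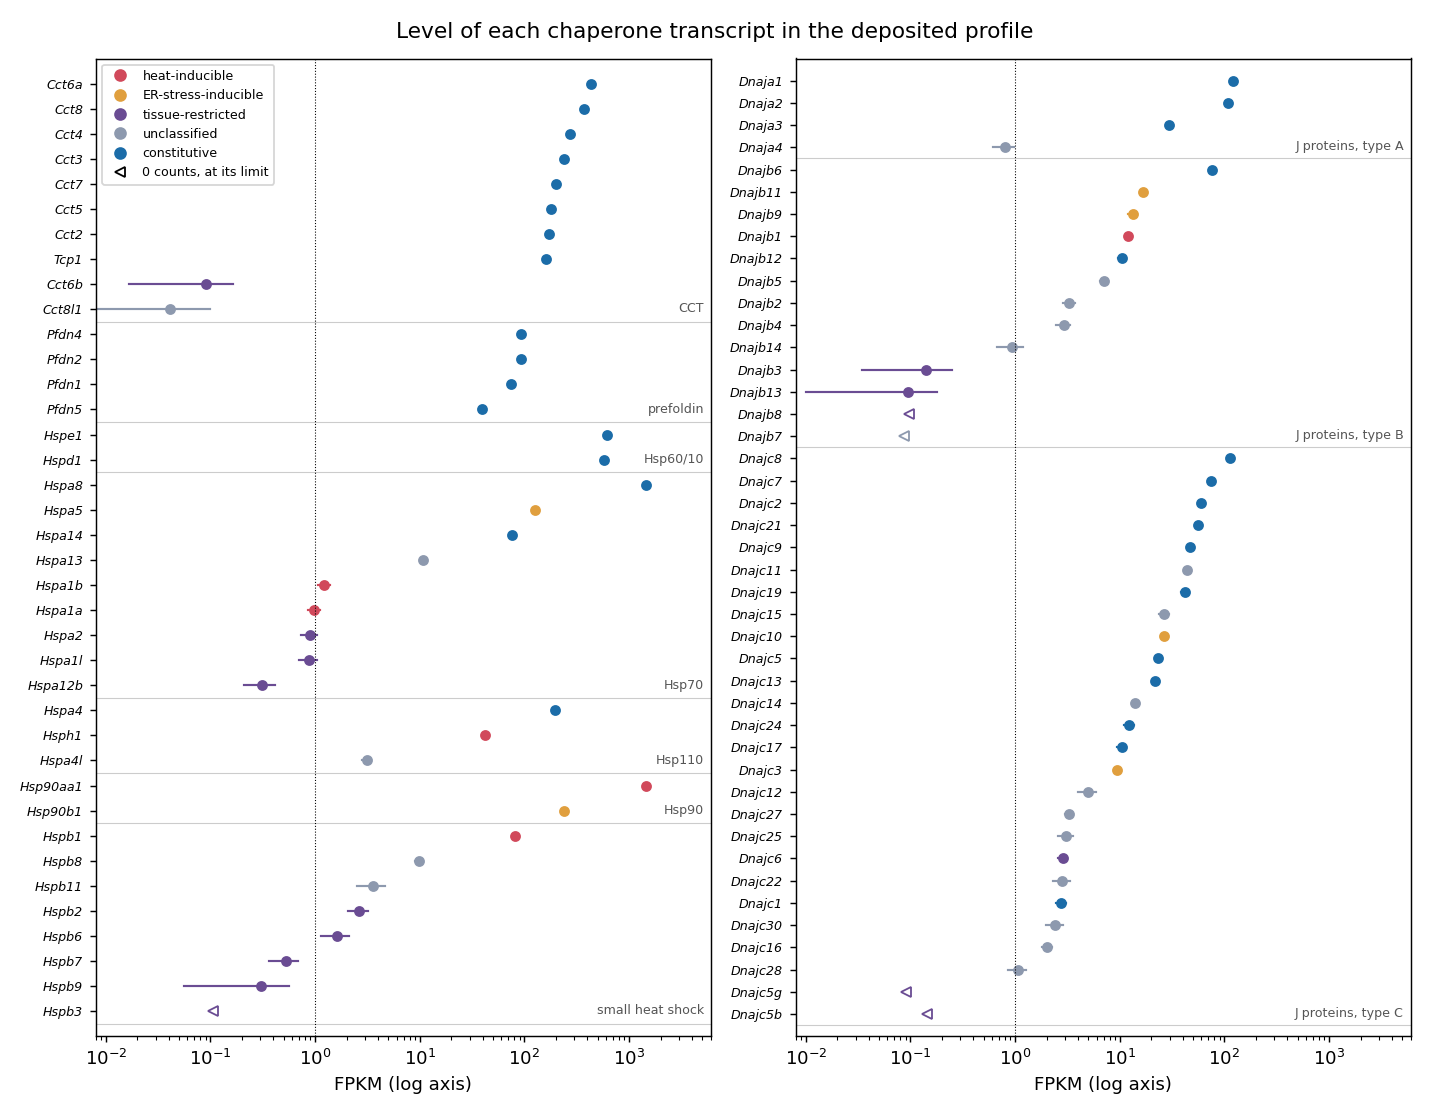
FPKM of every chaperone gene on a log axis, ordered within each family, with the deposited bounds as lines (bounds that reach 0 run to the left edge) and the dotted line at 1 FPKM. Colours give the class and open triangles mark the 5 genes with 0 counts at the limit of 3 counts. Hspa8 and Hsp90aa1, at 1462 and 1443 FPKM, stand above all others, and 17 genes lie left of the line.

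Genes of the tissues that the restricted chaperones are known from were looked up beside them. For scale, 56.0% of all genes had at least 1 FPKM. Of 9 testis markers, 2 had at least 1 FPKM, Sycp3 at 37.0 and Sycp1 at 2.43, while Prm1, Prm2, Tnp1, Tnp2 and Acrv1 had no counts. Of the 9 testis chaperones, none reached 1 FPKM on the effective length and 2, Hspa2 and Hspa1l, did on the model length. On the effective length, 3 of 9 muscle markers reached 1 FPKM, with Acta1 highest at 14.2 and Ckm at 0.160, and 2 of 4 muscle chaperones did. Of 6 neural markers, 2 did (Neurod1 at 5.31 and Syp at 3.16), and of 5 endothelial markers 2 did (Pecam1 at 5.61 and Tek at 2.51). The part of other cell types in these low levels was not tested.

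Partners of the chaperones outside the chosen symbols were widely present. Of 39 listed co-chaperones, regulators and tubulin folding cofactors in the table, 37 (94.9%) reached 1 FPKM, against 56.0% of all genes. Their median was 26.0 FPKM. The list was set with earlier results of these data known, so it is no independent support. Partners of Hsp90 included Ptges3 (p23) at 342 FPKM, Fkbp4 at 221, Ppid at 138, the ATPase activator Ahsa1 at 135 and the kinase adaptor Cdc37 at 87.3. St13 (Hip), which stabilises the ADP state of Hsp70, had 216. Ptges3 was the highest of the list on the effective length, but on the model length it had 288 FPKM, under Fkbp4 (414) and St13 (312). Among the genes named Bag, Bag1 had 62.4 FPKM, Bag6 43.1, Bag4 29.6 and Bag3, itself known as heat-inducible, 8.54. Of the heat shock factors, Hsf1, the main stress factor, had 12.7 FPKM (bounds 11.8 to 13.6), Hsf2 31.0 (29.5 to 32.6) and Hsf4 0.405. Unc45b, the muscle myosin chaperone, had 0.746 FPKM, against 6.80 for Unc45a, its general counterpart.

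Because Brf1 and Brf2 bind AU-rich elements, the 3′ untranslated regions of the chaperone genes were searched for TATTTAT in GENCODE M21, on the transcript strand. Of 80 chaperone genes with a region of at least 50 nt, 18 (22.5%) had the motif, against 4792 of 16323 genes (29.4%). The regions were shorter, with a median of 956.5 nt against 1197 nt, and the longest region per gene was used, which need not be that of the model behind the FPKM. Among the classes, 1 of 6 heat-inducible, 1 of 6 ER-stress-inducible, 2 of 15 tissue-restricted, 8 of 21 unclassified and 6 of 32 constitutive genes had it. Dnajc6 and Dnajc27 had the most sites, 4 each. Sites of 1 heat-inducible and 3 constitutive genes are shown as examples from abundant transcripts, with the motif in capitals. A site shows no binding, and no level in this table measures it.
Hsph1: actgagtcTATTTATattttctt
Tcp1: ttccctctTATTTATaacagtgt
Cct8: ggctctggTATTTATtcatcctc
Dnajb6: tctttcctTATTTATtgttcaac

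The deposited values rest on an effective length that was, at the median, 1.43 times the model length among the chaperones and 1.27 times among all genes. Using the model length raised the median gene with at least 1 FPKM by 0.40 on the log2 scale and the median chaperone by 0.54. The factor ran from 0.786 for Pfdn4 to 3.30 for Hspa1a, with Hspa1b at 3.17, Cct5 at 2.74 and Hspa2 at 2.63. Hspa1a and Hspa1b had 3.25 and 3.85 FPKM on the model length, and Hspa2 and Hspa1l 2.33 and 1.98. In all, 5 genes under 1 FPKM passed it on the model length, which gives 69 of 81 genes, against 58.2% of all genes.

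**Figure D5:**
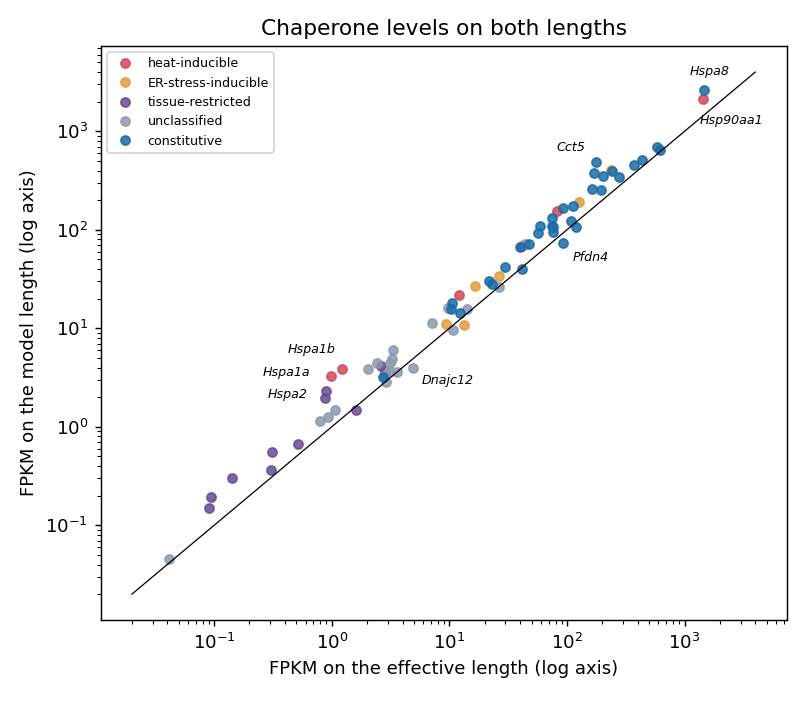
FPKM on the effective length (horizontal) and on the model length (vertical), both log axes, for the 76 chaperone genes with counts, coloured by class. The diagonal marks equal values; Hspa1a, Hspa1b, Cct5 and Hspa2 lie furthest above it, and Pfdn4 lies furthest below it.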

How the data were processed

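RNA immunoprecipitation and total RNA libraries from E14 cells are described in the labels, and 1 table was analysed. The tools named in the submitters' processing notes are eXpress 1.1.1, Bowtie 1.1.2 and CASAVA 1.8.2, with the build mm9. Settings and the use of strand were not found in the sources used here. The authors deposited read counts, estimated counts equal to them in every row, and FPKM with bounds, per the file headers. The deposited model and effective lengths are in bases. Recomputing FPKM from count, effective length and total gave the deposited values, and unique counts were the same as total counts throughout. One row that names no gene, which holds the sum, was left out.

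Members were taken by symbol. The members, classes and lists were chosen with earlier results of these data known, so no list is independent support. All members were to be named if they had a count. Of 64 genes listed in a class 60, and of 44 listed partners 39, are in the table used here. Ratios carry 95% counting intervals. A count of 0 is given the limit of 3 counts. Promoters came from RefSeq (GRCm38.p6), and transcripts and exons from GENCODE M21, whose build differs from mm9. Transcripts nearest in length to the model were used for words of 50 bases. The planned protein features were not run, and the planned comparison of libraries could not be run because no column names a library. Interval coverage was checked on simulated Poisson counts, and motif letters were searched in random sequences into which they had been put. Neither check bears on the reported motif counts or on error beyond counting. The software was matplotlib 3.10.9, scipy 1.17.1, pandas 2.3.3 and numpy 2.4.6 under Python 3.11.15.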

Additional observations from a re-analysis of the deposited data

How the results depend on the processing

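No paired analysis was possible because no column names a library or a replicate. For the same reason the planned settings for the comparison of immunoprecipitate with IgG (pseudocount, filter, leaving out a library, block) were not run.

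With the model length, medians were 16.1 FPKM for all chaperones, 45.5 for heat-inducible, 30.3 for ER-stress-inducible, 3.99 for unclassified and 110.0 for constitutive genes, and 5 tissue-restricted genes had at least 1 FPKM. The ratio of Hspe1 to Hspd1 turned to 0.941, that of summed Hspa1a and Hspa1b to Hspa8 was 0.00269, and that of Cct6a to Tcp1 was 2.00. That of Vbp1 to Pfdn5 was 2.24, while the highest to lowest prefoldin subunit on the model length, Pfdn2 to Pfdn5, differed 2.50 times. These follow from the lengths. Of 76 genes with counts, 61 were higher beyond their bounds, 4 lower and 11 within them, and 13 of 71 neighbouring pairs changed order. These counts were not made over all genes, so they describe the change of length and no trait of chaperones. Among all genes with at least 1 FPKM, the median rise was 1.32 times. With at least 10 counts, medians were 23.3 for all chaperones and 0.888 for tissue-restricted genes, since genes near 0 leave. At 5 FPKM, 0 of 15 tissue-restricted and 6 of 21 unclassified genes passed, against 38.3% of all genes. With 2 units, the heat shock element occurred in 29.4% of chaperone and 80.0% of heat-inducible genes.

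Added after the data were seen, a further setting left out 21 genes that overlap another gene's exons or share over 20% of their words. It left 45 of 60 genes at 1 FPKM or more, against 56.0% of all genes without this filter. Among them were 2 of 2 heat-inducible genes, Hsph1 and Dnajb1, and 19 of 19 constitutive genes. With few counts, as in Cct6b, Hspb9 and Dnajb13, bounds are wide, and 1 profile gives no spread between samples.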

Other observations

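Among 65 chaperone genes whose GENCODE transcript lay within 10% of the model length, the ratio of effective to model length and transcript GC content had a Spearman rho of 0.444. This describes genes of 1 profile that share its depth and the authors' length correction. Hspa1a and Hspa1b transcripts had 58.9% and 58.1% GC, and Cct3 49.3%. Single genes departed from this relation. Hspb9 had 59.8% GC with a ratio of 1.19, and Cct5 had 50.2% GC with a ratio of 2.74.

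Of the 81 genes, 31 shared at least 1 word of 50 bases with a transcript of another annotated gene, and 10 shared more than 20%. Among these 10 were the 4 chaperones with the highest levels, Hspa8, Hsp90aa1, Hspe1 and Hspd1. Dnajb6 shared 35.8%, Dnajc19 32.0% and Pfdn5 30.3%. Exons of 12 genes overlapped another gene of the table in GENCODE M21. Neither the shared words nor the overlaps were counted over all genes, so they cannot be read as particular to chaperones.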
